A study of Mus musculus with 49 samples.

Results

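Predicted genes, named Gm and a number because no described gene had been matched to the locus when it was named, were followed in single cortical neurons. All rows of the expression table whose whole name is Gm and digits were taken, which gave 245 of 9020 rows, with Gm10800, Gm10801 and Gm22567 among them. The 49 cells came from wild-type CD1 mice in which neurons born on embryonic day E13.5 had been marked with FlashTag, a fluorescent dye injected into the ventricle that is taken up by dividing progenitors at its surface. At postnatal day 7 (P7), bright cells in slices of the primary somatosensory cortex were patched, their content was aspirated into the pipette, and cDNA was made with a kit that primes on poly(A) and reads 3′ ends. The cells carry no treatment contrast and form 5 library pools of 12, 9, 9, 9 and 10 cells. The study states that they came from several independent experiments. To limit batch effects, it mixed cells of different collection days and laminar positions within a library. The labels tie no cell to an animal or an experiment. All cells therefore count here as a single sample, and differences between cells are given as descriptions without a test.

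The name Gm covers loci of very different kinds. Many are TEC entries (loci still awaiting experimental proof), unspliced transcripts seen as cDNA that often lie inside an intron of a longer gene, and such RNA can come from an unspliced precursor that is held in the nucleus. Others are processed pseudogenes, copies of an mRNA pasted back into the genome, whose sequence can be so close to the parent gene that a short read cannot tell them apart. A few are pieces of repeated DNA, such as the major (gamma) satellite that fills the centromeric heterochromatin of mouse chromosomes, or copies of small structured RNAs such as 7SL, the RNA core of the signal recognition particle.

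In GENCODE M21 (genome build GRCm38), 238 of the 245 names were found, and they were sorted into groups by class and place. The largest group, 108 rows, lay in an intron of a protein-coding gene on its own strand, and 33 lay opposite a gene. A further 47 were other noncoding entries, 21 other protein-coding entries, 18 pseudogenes and 7 small structured RNAs, and 4 shared words of 24 bases with Gm10800 and are called satellite-like here. The remaining 7 names were not in M21, among them Gm15800 and Gm561, which RefSeq lists as older names of Hectd4 and Smim26. TEC entries made up 126 of the rows.

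Gm10800 and Gm10801 (GRCm38 chr2:98666547-98667301, minus strand, and chr2:98662237-98664083, plus strand) are annotated as protein-coding, but their transcripts are built of the same repeat. A stretch of 240 bases of each annotated transcript, all within the annotated coding part, is printed to show this, 5′ to 3′, with capitals for bases in words of 24 bases that the 2 transcripts have in common and lower case for the rest.
Gm10800: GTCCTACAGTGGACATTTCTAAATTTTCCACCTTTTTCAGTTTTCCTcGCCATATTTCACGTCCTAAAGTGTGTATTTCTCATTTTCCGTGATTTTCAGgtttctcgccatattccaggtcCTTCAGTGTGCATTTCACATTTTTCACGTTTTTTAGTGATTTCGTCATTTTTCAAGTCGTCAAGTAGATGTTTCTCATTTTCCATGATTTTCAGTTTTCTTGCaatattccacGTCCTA
Gm10801: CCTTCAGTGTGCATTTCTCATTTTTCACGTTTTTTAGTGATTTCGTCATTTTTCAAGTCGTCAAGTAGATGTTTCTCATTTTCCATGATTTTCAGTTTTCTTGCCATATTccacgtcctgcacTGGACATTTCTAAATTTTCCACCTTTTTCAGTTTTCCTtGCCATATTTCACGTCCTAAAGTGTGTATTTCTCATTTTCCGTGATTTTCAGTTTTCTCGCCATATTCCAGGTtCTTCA
Of the 240 bases, 207 of Gm10800 and 225 of Gm10801 were in capitals. The transcripts, of 660 and 504 bases, also resembled themselves when shifted: identity with the own sequence was highest at a shift of 225 bases for Gm10800 (56.3%) and of 231 bases for Gm10801 (52.7%), and next highest at 58 bases in both. T made up 45.8% and 47.4% of their bases.

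Gm45264 and Gm43341, the intronic entries with the highest level in any cell, each carried a run of A inside the annotated transcript. The bases around the longest run are printed for Gm43341 (chr5:48978278-48979585, minus strand, in Kcnip4) and Gm45264 (chr8:55028401-55032395, plus strand, in Gpm6a), because the cDNA of these libraries was primed on A, and capitals mark the run.
Gm43341: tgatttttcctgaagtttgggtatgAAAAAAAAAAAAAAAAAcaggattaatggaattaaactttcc
Gm45264: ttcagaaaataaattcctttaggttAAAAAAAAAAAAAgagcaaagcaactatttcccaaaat
The runs are 17 and 13 bases long. Such runs were not the rule: of the 96 listed intronic TEC entries, 22 (22.9%) held a run of at least 12 A, against 11.9% of all intronic TEC Gm genes of M21. Where on the transcript the reads of a row lay is not told by the table, and priming at these runs was not tested.

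The depth of the cells ranged from 209850 to 35342325 reads with a median of 1240101, and the listed rows held 92.2% to 98.5% of them. Values are reads per 1000000 reads (RPM), and since 1 read stands for 0.0283 RPM in the deepest cell and 4.77 RPM in the shallowest, whole reads could be recovered from them. The 4 pan-neuronal markers Snap25, Syt1, Stmn2 and Map2 summed to between 974 and 15044 RPM, and at least 2 of them reached 10 RPM in all 49 cells. At least 2 excitatory markers did so in 35 cells and at least 2 inhibitory markers in 17. Markers of other cell types were also present: at least 2 reached 10 RPM in 17 cells for the oligodendrocyte lineage, 9 for microglia, 6 for astrocytes and 47 for red blood cells. The library has no molecular identifiers, so that reads are not independent molecules. Cell IL12 of pool 1 stood apart, with 225363 reads in a pool whose other cells had 258130 or more with a median of 11295087, and values without it are given where it weighs.

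The 245 rows together took 0.204% to 2.80% of a cell's reads, with a median of 0.572%. The highest share was that of cell IL12 of pool 1, followed by 2.31% in IL09 and 2.06% in IL01 of pool 5. The lowest was that of IL01 of pool 3, in which hemoglobin took 68.8% of the reads. At least 1% of reads fell on Gm rows in 15 of 49 cells (30.6%). These high cells were not spread evenly: they were 3 of 12, 2 of 9, 0 of 9, 4 of 9 and 6 of 10 cells of pools 1 to 5. Without the 3 cells with at least 10% hemoglobin the median was 0.562%.

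**Figure D1:**
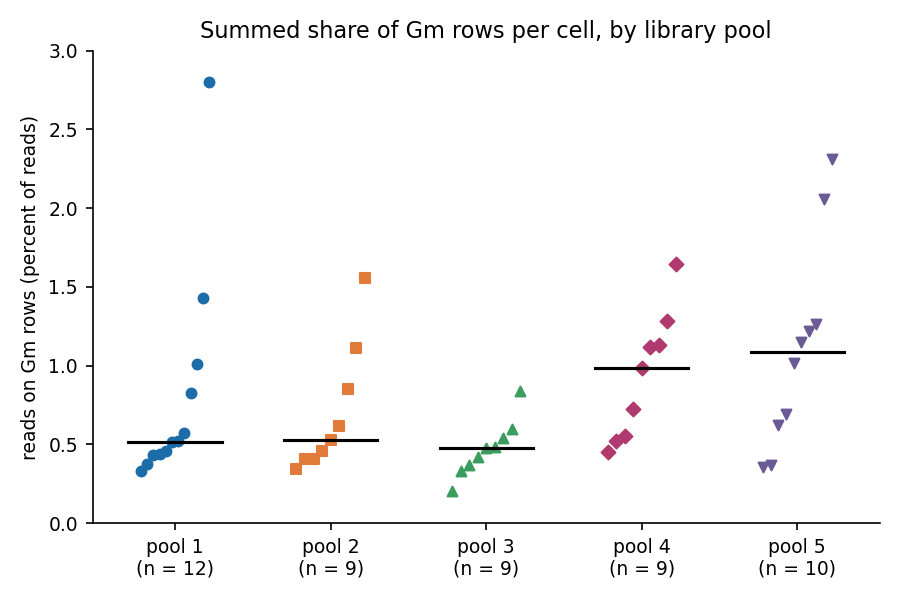
Summed share of the 245 Gm rows in each cell (points, percent of the cell's reads) by library pool, with the median of the pool as a bar. Pools 4 and 5 have medians of 0.988% and 1.08%, pools 1 to 3 medians of 0.475% to 0.529%, and the ranges of all pools overlap.

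Pool medians were 0.517%, 0.529%, 0.475%, 0.988% and 1.08%, and the ranges of the pools overlapped. Differences between pools made up 14.95% of the variance of the share. In pools this small, part of such a value arises without any true difference between pools, and that part was not estimated. The pools also differed in depth, and 26.02% of the variance of log10 reads lay between them, with medians of 9870201, 1409643, 1400506, 1119611 and 814366 reads in the same order. Pool and depth can therefore be told apart only within pools. Pool 4 also held 2 of the 3 cells high in hemoglobin, and its median share without them was 0.725%. For the 274 Rik rows, clone-named genes that are also without a descriptive name, between-pool differences were 3.05% of the variance.

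A cell held reads of 53 to 174 Gm rows (median 121), of which 5 to 80 reached 100 RPM (median 17). At least 50% of a cell's Gm reads came from as few as 2 and as many as 28 members, with a median of 10. Gm1673 led in 22 cells and Gm10800 in 8, and another 16 members led in 1 or 2 cells each. The leading member took 4.11% to 34.4% of the Gm reads (median 14.7%).

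Most members were sparse. Only 32 of the 245 (13.1%) had a median of at least 10 RPM, against 38.2% of all rows of the table. A read in every cell was found for 19 members (7.76%), against 8.1% of all rows. Every row of the table reached 100 RPM in at least 2 cells, and 112 members (45.7%) did so in exactly 2, against 15.7% of all rows. The median member had reads in 20 cells and drew 35.4% of its summed RPM from its highest cell. For all rows these medians were 37 cells and 19.9%.

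The listed members were also a small and uneven sample of the annotated ones. M21 names 26679 Gm genes, of which 0.892% were in the table, compared with 41.2% of the 20419 protein-coding genes with other names. Among the Gm genes, 4.57% of the 2756 TEC entries, 0.594% of the lincRNAs and 0.174% of the processed pseudogenes were listed. The row filter at 100 RPM in 2 cells decides which are seen, so that these shares say nothing about a Gm gene under it.

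The 19 members with reads in every cell came from all groups but the names not in M21: 5 were other protein-coding entries, 4 other noncoding, 3 opposite-strand, 2 each intronic, pseudogene and small structured RNA, and 1 was satellite-like. Gm1673 (chr5:33983433-33985013), which encodes a small secreted protein, had the highest median of the 245, 523 RPM, with a lowest cell of 15.6 RPM and a highest of 1418 RPM. Its pool medians were 281, 572, 833, 574 and 311 RPM, which do not follow those of the summed share. Gm17018, whose exons overlap Fbxw4 on the other strand, had a median of 122 RPM and ranged from 0.709 to 1752 RPM. Both had reads in all 49 cells, and the Spearman correlation of their level with reads per cell was 0.12 and 0.11. Correlations here are Spearman coefficients over the cells unless named as Pearson's. Gm16286 and Gm20604 share exon sequence with Txnl4a and Moap1 on the same strand, which leaves part of their reads uncertain. Gm16286 had a median of 57.5 RPM and was found in all cells, while Gm20604 had a median of 5.45 RPM and was found in 35. Gm15800, the older name of Hectd4, had a median of 57.6 RPM with reads in 44 cells.

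Gm26723 and Gm26631, both on the strand opposite a gene, had medians of 90.1 and 74.1 RPM and reads in 49 and 47 cells. The partner of Gm26631 is Cox5a, a subunit of cytochrome c oxidase, and the correlation between them was 0.64. Of the windows of 100 bases in Gm26631, 3.08% are found on the other strand of Cox5a. The strand setting of the counting is not given in the sources used here. Without it, reads where the 2 genes of such a pair overlap cannot be told apart. Over the 24 opposite-strand members whose partner is in the table, the median correlation was 0.22, which lay at a median percentile of 81.3 among the correlations of the member with all other rows. Gm10558, opposite Map2, reached 722 RPM with a median of 14.3 RPM, and its correlation with Map2 was 0.14.

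**Figure D2:**
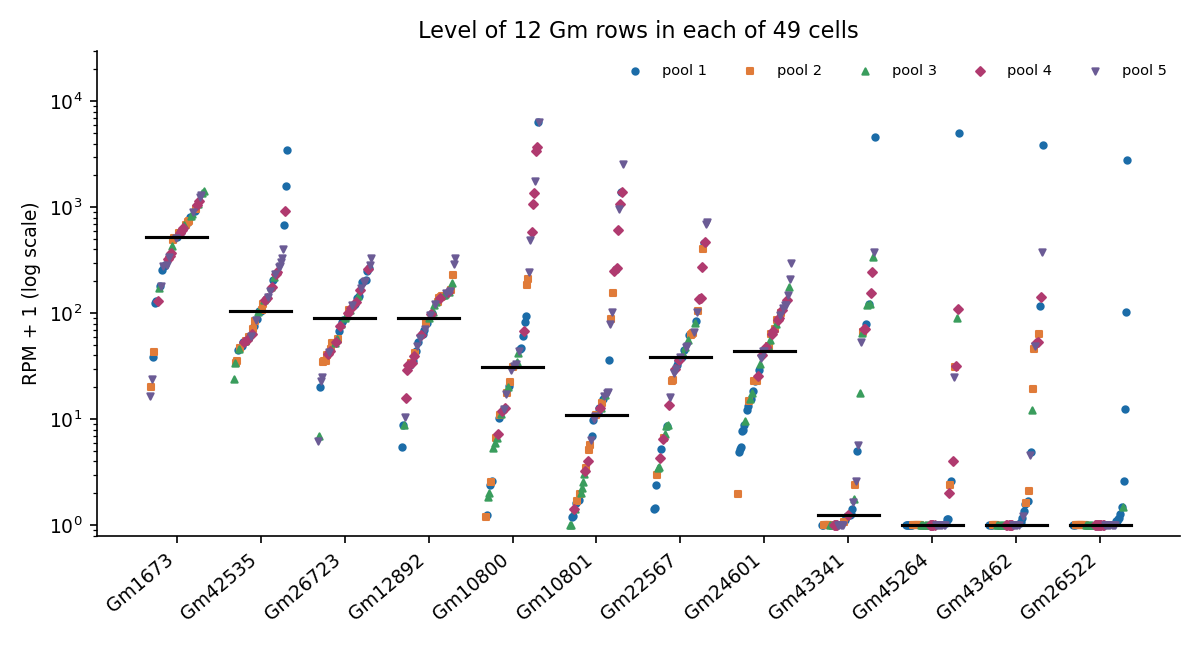
Level of 12 Gm rows in each of the 49 cells (points, RPM + 1 on a log axis, coloured by library pool), sorted by level within each row, with the median as a bar. Gm1673 and the 3 rows after it are present in every cell, while Gm43341, Gm45264, Gm43462 and Gm26522 are near 0 in most cells and at 2822 RPM or more in 1.

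Pseudogene rows were compared with the gene whose transcript is most like theirs. Gm12892, a copy of the brain creatine kinase gene Ckb on another chromosome, had reads in every cell and a median level of 88.5 RPM, against 688 RPM for Ckb. An 80-base stretch of it and of the coding part of Ckb, chosen where they differ most, shows where a read could tell them apart, with differing bases in capitals.
Gm12892: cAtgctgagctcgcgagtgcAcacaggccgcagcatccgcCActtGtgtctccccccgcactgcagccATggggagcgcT
Ckb: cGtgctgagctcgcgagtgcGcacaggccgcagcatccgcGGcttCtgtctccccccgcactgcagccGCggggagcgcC
There are 8 differences in these 80 bases and 97.3% identity over the 1140 aligned bases. The RPM of Gm12892 summed over cells was 12.7% of that of Ckb, and the correlation between them was 0.60 over 49 cells. Gm15920 is listed by RefSeq as a pseudogene of Ndufa12, a complex I subunit. It is 99.5% identical to it, its total was 38.5% of that of Ndufa12, and the correlation was 0.78. An 80-base stretch of this pair, with its single difference in capitals, shows how close they are.
Gm15920: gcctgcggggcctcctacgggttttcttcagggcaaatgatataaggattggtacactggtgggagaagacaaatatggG
Ndufa12: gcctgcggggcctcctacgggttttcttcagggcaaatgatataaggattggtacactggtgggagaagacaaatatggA
Gm10263, 99.0% identical to the ribosomal protein gene Rps28, had a total of 219% of that of Rps28 with a correlation of 0.53. Gm11942 and Rplp1 had a correlation of 0.50. For Gm10039, 99.8% identical to the ATP synthase gene Atp5g1, the correlation was only 0.10 and its total 174% of that gene's. A read on such a pair may belong to either gene, so these levels are uncertain. Gm7389, 95.6% identical to Xpot, had a correlation of 0.02 with it, and the correlation was −0.14 for Gm13423 and −0.01 for Gm14776 with Npm1, to which they are 80.2% and 83.0% identical.

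Intronic members made up 29.3% of all Gm RPM. The 96 intronic TEC entries were 76.2% of the 126 listed ones, against 46.5% of all TEC Gm genes of M21, and they lay in 55 genes. With a host counted once for each entry in it, the median host span was 565 kb for listed entries and 202 kb for entries not listed. A host with many entries weighs more in such a median. The listed protein-coding genes as a whole, each counted once, had a median of 27.4 kb, which is not a like measure. A run of at least 12 A was present in 32 of the listed TEC entries (25.4%), against 9.87% of all TEC Gm genes. A run of at least 12 T was also more frequent, in 27 (21.4%) against 15.2%. Listed entries were also longer, with a median of 2394 bases against 2058 bases for all TEC Gm genes. The part of length in the frequency of runs was not tested.

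Several hosts held more than 1 member. Dlg2, which encodes the postsynaptic scaffold PSD-93, held 9 of the 16 Gm genes that M21 places in its introns on the same strand, and the ankyrin gene Ank2 held 6 of 10. Auts2 held 5 of 20, Fam155a 5 of 9, the adhesion receptor gene Adgrb3 4 of 16, the channel-associated Kcnip4 4 of 22 and the synaptic adhesion gene Lrrtm4 4 of 8. Of all 1589 Gm genes that M21 places in introns on the same strand, 108 (6.80%) were listed, and these hosts are named because they held the most. They are long, with spans of 565 kb (Fam155a) to 1973 kb (Dlg2). The 9 members in Dlg2 summed to between 0 and 1263 RPM per cell with a median of 46.5 RPM, and at least 1 of them reached 100 RPM in 15 cells and at least 2 in 8. The row of Dlg2 itself had a median of 11.9 RPM, and the correlation between it and the sum of its members was 0.32. For Ank2 the correlation was 0.47, for Lrrtm4 0.43, and for Gpm6a, whose row had a median of 669 RPM, 0.05. These relations were weak and the counts sparse. Over the 107 intronic members with a listed host, the median correlation with the host was 0.17, at a median percentile of 73.7 among all rows, and 24 members had their host at or above the 90th percentile. In the 772 cases of a member at 10 RPM or more in a cell, the host was at 10 RPM or more in 595 (77.1%). Over all 49 cells, whatever the level of the member and with the same weight for each member, the hosts were at 10 RPM or more in 62.5%.

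A few intronic members were very high in 1 cell. Gm45264, in the gene of the neuronal membrane glycoprotein Gpm6a, had 4979 RPM in IL12 of pool 1 and at most 109 RPM elsewhere, with reads in 13 cells. Gm43462, in the mannosidase gene Man1a2, had 3909 RPM in the same cell and at most 378 RPM elsewhere. Gm26522, opposite an intron of the protease gene Ctsc, had 2822 RPM there and at most 101.1 RPM elsewhere. All 3 thus rest on 1 shallow cell. Gm43341, in Kcnip4, had 4575 RPM in IL02 of pool 1 and at most 380 RPM elsewhere, with reads in 29 cells.

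Other members with a high mean in their class also varied widely. Gm10115, in the splicing regulator gene Celf2, had a median of 1.53 RPM and a highest of 1124 RPM with reads in 30 cells, and Gm19938, in Xkr4, was found in 24 cells with up to 382 RPM. Of the noncoding entries, Gm17750, Gm17066, Gm4258 and Gm26871 had medians of 1.66, 3.12, 0.954 and 0.809 RPM and highest values of 1052, 910.2, 577 and 468 RPM. Each was found in between 29 and 38 cells. Gm20644 had reads in all cells, a median of 7.90 RPM and a correlation of −0.54 with reads, while Gm20712, which lies 318 bases downstream of Tmem65 on the same strand, was found in 28 cells with at most 127 RPM. Gm15594, opposite Cttnbp2, had a median of 0.496 RPM and a highest of 314 RPM. Pseudogene rows only loosely like a named transcript (69.2% identical to Actr10 and 71.4% to Mettl6) were Gm19087 (median 12.6 RPM, highest 838 RPM) and Gm29013 (median 17.7 RPM, highest 193 RPM). Gm11427, like Slfn4, and Gm15697, like Kif11, had reads in 7 and 4 cells.

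The summed intronic share ran from 0.00830% to 1.32% of a cell's reads, with a median of 0.104%. It went with Malat1, a long noncoding RNA retained in nuclear speckles, which ranged from 306 to 68722 RPM. The Spearman correlation over the 49 cells was 0.72, and 0.78 without IL12 of pool 1, which was high in intronic share and low in Malat1. Within pools 1 to 5 it was 0.45, 0.87, 0.83, 0.75 and 0.98. The cells share their pools and the points their library and its depth. With the summed level of the listed nuclear or neuronal long noncoding RNAs, of which Malat1 made up a median of 66.2%, the correlation was 0.75, and it was 0.79 with Malat1 taken out of the sum.

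The other groups stood differently to Malat1. The correlation was 0.48 for the opposite-strand group, 0.40 for other noncoding entries, 0.17 for the Rik rows, 0.12 for pseudogenes, 0.04 for small structured RNAs, 0.00 for the satellite-like rows and −0.17 for other protein-coding entries. Ribosomal protein rows were at −0.46. Taken singly, 36 of the 108 intronic members (33.3%) had a correlation with Malat1 of at least 0.3, as did 62 of all 245 Gm rows (25.3%), 29 Rik rows (10.6%) and 10.3% of all rows of the table. No intronic member was at −0.3 or below, against 318 of 9019 rows. The row filter bears on these correlations and counts. Of the 108 intronic members, 52 (48.1%) reached 100 RPM in exactly 2 cells, against 15.7% of all rows. Members that were listed only through cells high in Malat1 are counted here too, and the part of the filter in these shares was not tested. The cell with the most members at their highest value, IL09 of pool 5 with 29, had 45316 RPM of Malat1, the second highest, and 80 Gm rows at 100 RPM or more. The cell highest in Malat1, IL02 of pool 4, had 11 such members. IL12 of pool 1 also had 11, with 981 RPM of Malat1. A figure caption of the study speaks of nuclear suction, while its methods state that intracellular content was aspirated. What part of each cell's content, nuclear or cytoplasmic, entered the pipette is not recorded in the labels, and its part in this relation was not tested.

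**Figure D3:**
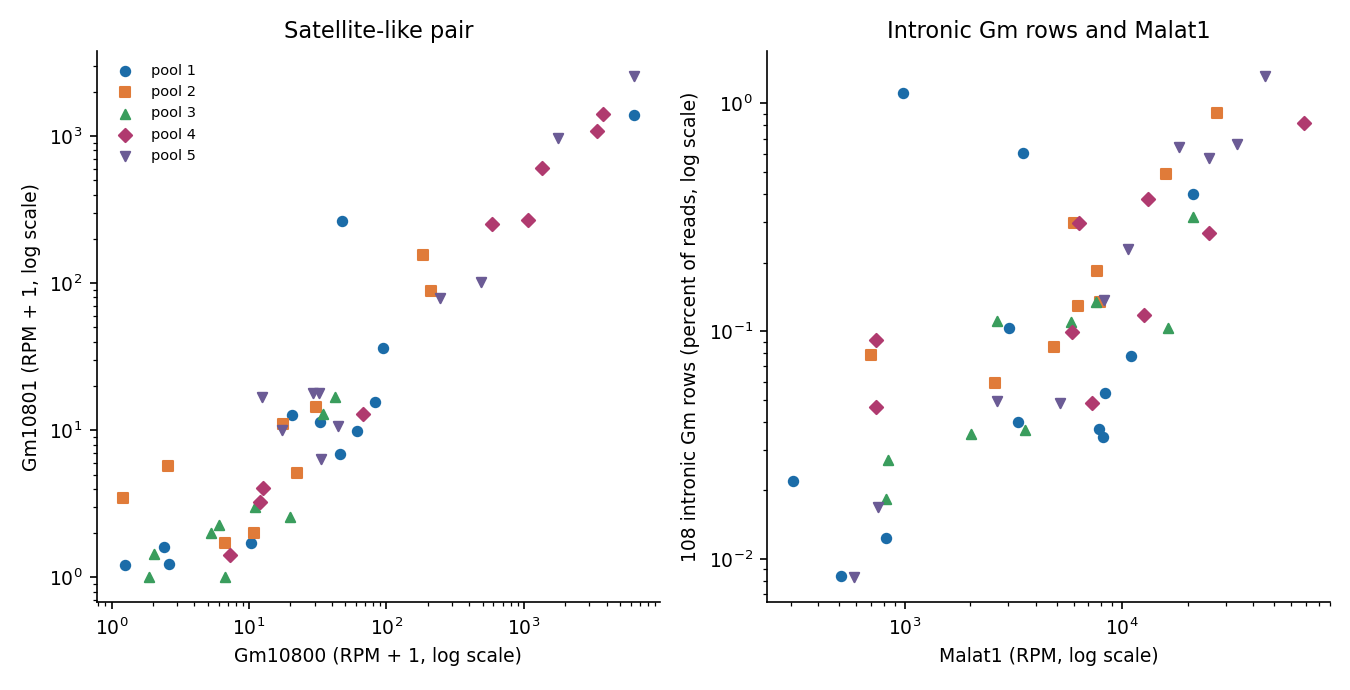
Left: Gm10801 against Gm10800 in 49 cells (RPM + 1, log axes), with a correlation of 0.91. Right: share of reads on the 108 intronic Gm rows against Malat1 (log axes), with a correlation of 0.72. Points are cells, coloured by library pool, and the cell at the top left on the right is IL12 of pool 1.

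The satellite-like rows made up 9.87% of all Gm RPM, and were low in most cells and high in a few. Gm10800 had reads in all 49 cells with a lowest value of 0.205 RPM, a median of 29.9 RPM and a highest of 6327 RPM. It was at 100 RPM or more in 12 cells, of which 1, 2, 0, 5 and 4 belonged to pools 1 to 5. Its pool medians were 38.3, 16.6, 5.71, 589 and 37.7 RPM. The median was above 100 RPM in pool 4 alone, and in pool 5 the high values were those of 4 cells. Gm10801 followed with a median of 9.96 RPM and a highest of 2567 RPM, in 47 cells.

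The 2 rows varied together. The Spearman correlation was 0.91 and Pearson's r on log2(RPM + 1) 0.94 over 49 cells, and the correlation was 0.90 without IL12 of pool 1. In the 22 cells with at least 20 reads of each, the ratio of Gm10801 to Gm10800 ran from 0.131 to 0.839 with a median of 0.380. Of the other 2 satellite-like rows, Gm10717 had a correlation of 0.74 and Gm21738 0.66 with Gm10800. The 5 rows of the whole table most like Gm10800 were Gm10801, Gm10717, Gm42535, Gm21738 and Gm11131, with correlations of 0.91, 0.74, 0.70, 0.66 and 0.64, all of them Gm rows. Gm42535, a TEC entry away from protein-coding genes that shares no such word with Gm10800, is itself among the most abundant members, with reads in all cells, a median of 104 RPM and a highest of 3452 RPM in IL02 of pool 1.

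High levels of the satellite-like rows were found in shallow cells. The 12 cells with at least 100 RPM of Gm10800 had 209850 to 1141732 reads (median 686944), and the other 37 had 254182 to 35342325 (median 2409088). The correlation of the satellite-like sum with reads was −0.54, and −0.70, −0.22, −0.43, −0.68 and −0.39 within pools 1 to 5. It was below 0 in every pool. The sum also went with hemoglobin: the correlation with the 4 listed red blood cell markers was 0.55, and 0.53 without the 3 cells with at least 10% hemoglobin. Hemoglobin itself had a correlation of −0.36 with reads. In the 12 cells it was 0.0604% to 21.6% of reads (median 0.162%), against 0.00278% to 68.8% (median 0.0532%) in the other 37, and its part in the level of these rows was not tested. Whether the reads came from RNA or from genomic DNA cannot be told apart in this table.

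The small structured RNA rows, 3.40% of all Gm RPM, had the lowest correlation with depth of the groups. They comprise Gm22567, Gm23153, Gm24514 and Gm22701, whose nearest named transcript is the 7SL RNA Rn7s1 (79.4%, 95.2%, 94.9% and 87.6% identical over the aligned part), Gm24601 near the 5.8S ribosomal RNA n-R5-8s1, and Gm22973 and Gm26176 near the spliceosomal RNAs U2 and U6. Gm22567 had at least 1 read in each cell, from 0.435 to 724 RPM with a median of 37.8 RPM, and pool medians of 33.3, 61.8, 7.90, 35.03 and 47.7 RPM. Its correlation with reads was −0.68 over all cells and between −0.88 and −0.58 within the pools. For Gm23153 and Gm24514 the correlation was −0.64 and −0.53.

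Over the 7 rows the sum had a correlation of −0.83 with reads, −0.82 without IL12 of pool 1, and −0.88 to −0.53 within pools. The pools therefore showed the same direction throughout. Gm24601 had a median of 43.3 RPM and a correlation of 0.98 with n-R5-8s1, to which it is 78.3% identical over 129 aligned bases. Whether their reads are of 1 source was not tested. Gm26176 was different, with 1837 RPM in 1 cell of pool 4 and none in 33 of the 49 cells. These RNAs carry no long poly(A) tail, and how they entered these libraries was not tested.

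**Figure D4:**
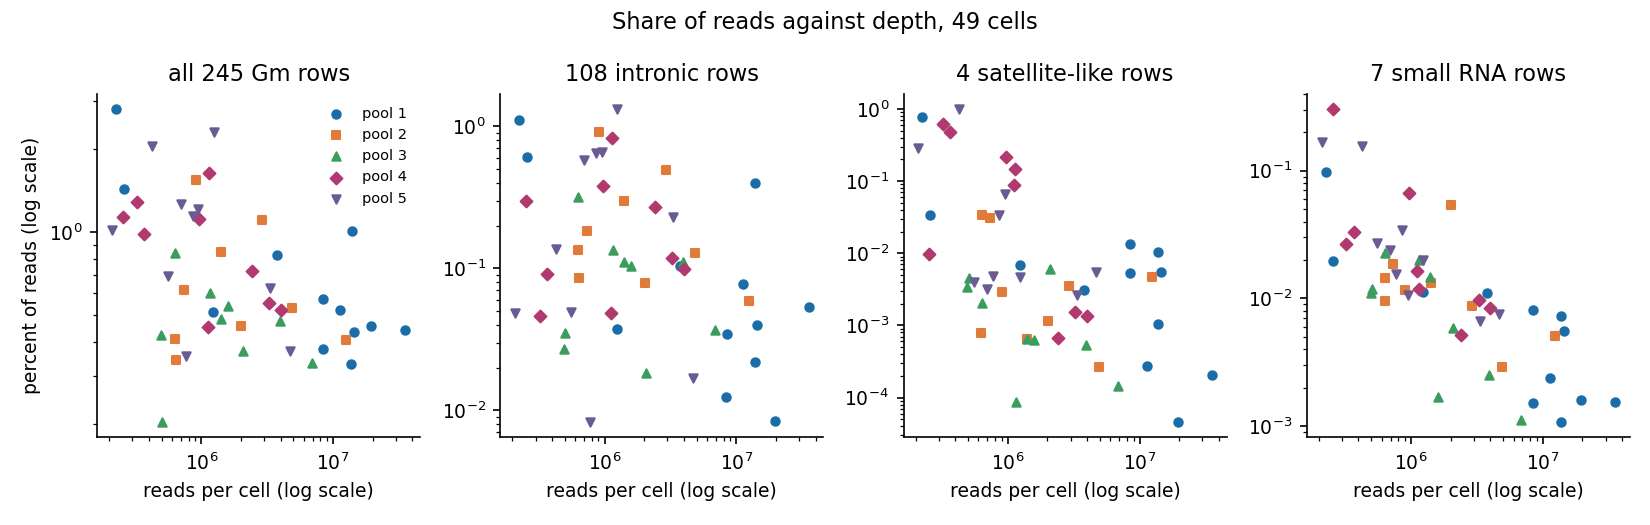
Share of reads against reads per cell (both axes log) for all Gm rows, the intronic, the satellite-like and the small structured RNA rows, 1 point per cell, coloured by library pool. The correlation is −0.45, −0.31, −0.54 and −0.83 from left to right.

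The summed Gm share was lower in deeper cells. The Spearman correlation with log10 reads was −0.45 and Pearson's r on log2(RPM + 1) −0.47 (n = 49). Without the 2 cells farthest from the median depth these were −0.43 and −0.45. Within pools 1 to 5 the correlation was −0.61, 0.12, −0.15, −0.57 and −0.22, so that pool 2 did not share the direction. Without IL12, the correlation in pool 1 was −0.49. Without Gm10800, Gm10801 and Gm22567 it was −0.36 over all cells. The Rik rows had −0.08, the ribosomal protein rows −0.31 and the mitochondrial rows −0.43. The row filter bears on these values, since 100 RPM stands for fewer reads in a shallow cell. Of the Gm rows, 112 (45.7%) reached it in exactly 2 cells, against 15.7% of all rows. The part of the filter in the relation to depth was not tested.

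The groups of Gm rows differed in their relation to depth. The satellite-like (−0.54) and small structured RNA rows (−0.83) had negative values in every pool, and the intronic group (−0.31), other noncoding entries (−0.37) and pseudogenes (−0.31) had negative values that changed sign between pools. The opposite-strand group (0.06) and other protein-coding entries (0.36) had values above 0 over all cells, but the first was at −0.39 in pool 1 and the second at −0.16 in pool 5. These relations share the denominator of RPM, the cells and the row filter, and are descriptions.

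The number of genes detected in a cell went with its depth. Reads and the number of other rows detected had a correlation of 0.91. The Gm share had a correlation of −0.27 with the number of other rows detected, and 0.03 with the number detected after thinning the 44 cells with enough reads to 358412 reads each. It was 0.37 with the mitochondrial share. With the marker lists of neurons, excitatory and inhibitory neurons, astrocytes, the oligodendrocyte lineage, microglia and red blood cells, the correlation lay between −0.15 and 0.26.

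Row by row, 18 members (7.35%) had a correlation with reads of −0.3 or below, against 0.654% of all rows, so that 18 of the 59 such rows of the whole table were Gm rows. None of the 274 Rik rows was among them. The part of the row filter in these counts was not tested. With edgeR TMM scaling of the recovered reads these were 14 Gm rows of 34, and in the 44 cells with at least 358412 reads 11 Gm rows of 87. The 18 included 5 of the 7 small structured RNAs, 3 of the 4 satellite-like rows, 5 other noncoding entries, 2 opposite-strand entries and 1 each of the intronic, other protein-coding and pseudogene groups. The lowest were Gm22567 (−0.68), Gm42535 (−0.67) and Gm23153 (−0.64). At 0.3 or above there were 71 members (28.98%), against 41.7% of all rows and 45.6% of Rik rows. The highest among those found in at least 10 cells were Gm20604, Gm43527 and Gm17634, each at 0.54.

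Thinning to 358412 reads was possible in 44 cells and left out the 5 shallowest. In these 44 cells, 59 Gm rows were at 0.3 or above before thinning and 18 after it, against 3293 and 2088 of all rows. At −0.3 or below there were 11 Gm rows before and 19 after, against 87 and 116 of all rows. The median correlation of the Gm rows in these cells was 0.11 before and −0.02 after thinning, and that of all rows 0.23 and 0.16.

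**Figure D5:**
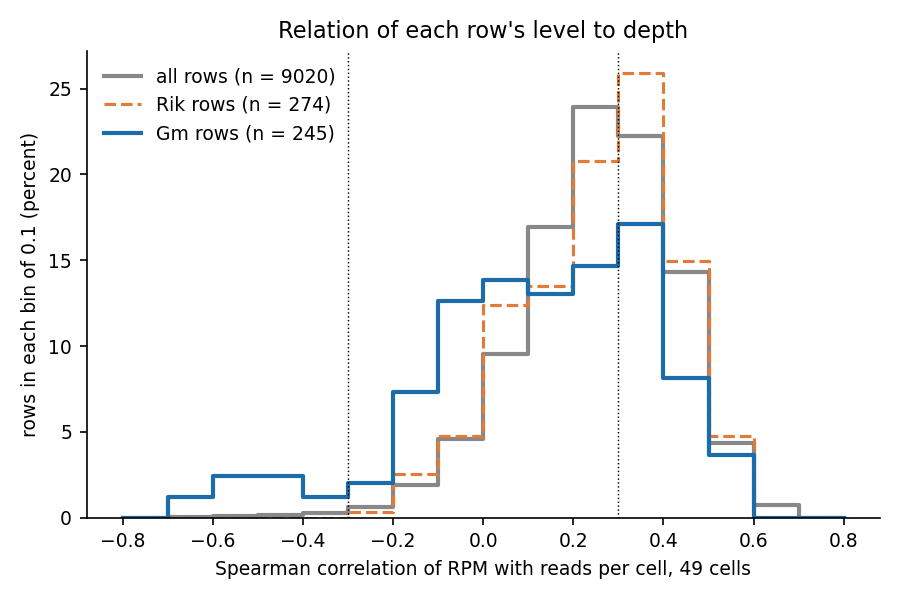
The Spearman correlation of each row's RPM with reads per cell over 49 cells, as the percent of rows in bins of 0.1, for all rows, the Rik rows and the Gm rows, with dotted lines at −0.3 and 0.3. Gm rows have 7.35% of their number at or below −0.3, all rows 0.654% and Rik rows none.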

How the data were processed

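Per the labels and the methods of the study, the authors made cDNA from single patched cells (SMART-Seq v4 3′ DE) and libraries (Nextera XT). They sequenced single-end reads, aligned them to mm10 (GRCm38) with STAR, counted with HTSeq, and deposited reads per 1000000 reads (RPM). Tool versions, the annotation and the strand setting are not given in the sources used here. RPM was divided by the value of 1 read in each cell, and 100% of values above 0 came within 0.01 of a whole read. Recovery was tested on simulated data. Reads gave detection (1 read) and thinning to 358412 reads in 44 cells (shallower ones left out). Levels are RPM, and log2 values have a pseudocount of 1. The depth is 209850 to 35342325 reads.

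The members, groups and lists were chosen with earlier results of these data known. Named were Gm10800, Gm10801 and Gm22567, the 10 members with the highest median and the 10 with the highest value in a cell, the 3 highest by mean of each annotated class, the 3 with the lowest and the 3 with the highest correlation with reads among those in at least 10 cells, and the 5 rows most like Gm10800. Other members, hosts and cells were named after their values were seen. Groups, positions and sequences are from GENCODE M21, older names from RefSeq. Tools were scipy 1.17.1 and pandas 2.3.3 in Python 3.11.15 and, for an alternative scaling, edgeR 4.0.16 in R 4.3.3. Alternatives covered denominator, filter, pseudocount, scaling, detection limit, thinning and cells left out.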

Additional observations from a re-analysis of the deposited data

How the results depend on the processing

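Of 108 alternative values, 97 kept their direction and stayed within 1 SD over cells or pools (for counts, within 1.5 times). The median share was 0.572%, and under the alternatives it lay between 0.494% (without the leading member of each cell) and 0.660% (without library pool 3). The SD over cells is a wide limit for a median. Without the 4 satellite-like rows the median of pool 4 was 0.667% in place of 0.988%, and this counted as within it. Some alternatives left out no cell of a pool, so that its median could not change. The correlation of the share with reads was 0.12 within library pool 2 in place of −0.45, and Pearson's r was −0.095 there and −0.053 within pool 3 in place of −0.47. The correlation with genes detected was −0.27, and 0.035 in thinned cells. The median number of Gm rows detected, 121, was 62 at 10 reads and 56 at 10 RPM, which the stricter limits require. Of all rows, 59 had a correlation with reads of −0.3 or below, 34 with edgeR's TMM scaling and 116 in the 44 thinned cells. At 0.3 or above, these cells left 18 in place of 71 Gm rows and 2088 in place of 3764 rows in all. In the same 44 cells without thinning, 11 in place of 18 Gm rows were at −0.3 or below. The cause of the changes was not tested. No paired analysis was possible because the design has no second group to pair with. Leaving out cell IL12 of pool 1, the cells high in hemoglobin or the satellite-like rows, thinning the rows and keeping the 44 cells without thinning were chosen after seeing the data.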
